A study of Mus musculus with 12 samples.

Results

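Olfactory receptors are G protein-coupled receptors of the nose. Their genes, named Olfr in the mouse, form the largest gene family of the genome and lie in clusters on many chromosomes. Each mature olfactory sensory neuron expresses a single receptor gene and keeps the others silent. H3K27me3, the trimethylated form of a lysine of histone H3, is set by Polycomb repressive complex 2 and marks many silent genes, most often those with CpG-rich promoters. In olfactory neurons, the silent receptor genes are known instead to carry marks of constitutive heterochromatin.

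The olfactory receptor genes of chromosome 9 were set against the H3K27me3 sites of mouse fibroblasts. All protein-coding genes of chromosome 9 whose symbol is Olfr followed by a number in the GENCODE annotation of GRCm38 were taken. This gave 132 genes of the 21755 protein-coding genes on chromosomes 1 to 19 and X. Another 1003 genes of this name were on other chromosomes. The rule used the symbol and position of a gene and no measured value.

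The sites were mapped by ChIP-seq, the sequencing of DNA recovered with an antibody to the mark from sheared chromatin, in iMEF cells (immortalized mouse embryo fibroblasts). All groups shared the same genetic background: the endogenous Ash2l gene, which encodes a subunit of the COMPASS histone H3 methyltransferase complexes, had been deleted by an inducible Cre, and a lentiviral human ASH2L with an FKBP domain tag at its N terminus took its place. The study describes these ChIP-seq experiments as made in NG3 cells, which are 1 clone. The degrader dTAG, which directs the fusion protein to the proteasome, was absent in 2 H3K27me3 libraries and present for 16 h, 24 h and 48 h in 2 libraries each, and 4 input libraries, without antibody, were made without dTAG or at 48 h. The list used here gives the chromosome, start and end of 101389 sites found over all samples, with no value for any library. A separate list of sites changed at each time point, which the study names, was not used here. The values below are therefore positions in the pooled list. They cannot show whether a site was present in untreated or in dTAG-treated cells, and they carry no replicate error. The study's methods name a minimum number of raw reads planned per ChIP sample, but the depth behind each site is unknown.

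The genes formed 2 clusters, defined as runs of genes at most 500 kb apart. The proximal cluster ran over 1.58 Mb from Olfr24 to Olfr18 (chr9:18751507-20336094, GRCm38) and held 37 of the genes. The distal cluster ran over 2.48 Mb from Olfr160 to Olfr986 (chr9:37708964-40190134) and held the other 95. The clusters were 17372869 bp apart.

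The sequences below show the DNA at the genes with the nearest sites and at the gene with the farthest. They are the 250 bases before the transcription start site (TSS) nearest to a site, for Olfr835, the gene farthest from any site, and for Olfr923, Olfr985 and Olfr986, which had a site within 1 kb. For Olfr26, the fourth such gene, the site itself is shown, as an example of a site that lay wholly in coding sequence. In Olfr835, Olfr923 and Olfr985 the TSS used was inside the gene body, so the stretch shown is part of the gene and not upstream of it. All sequences were read from RefSeq's GRCm38.p6 sequence of chromosome 9, 5′ to 3′ on the strand of the gene. The capitals mark CpG dinucleotides.
Olfr835, chr9:19034875-19035124, plus strand: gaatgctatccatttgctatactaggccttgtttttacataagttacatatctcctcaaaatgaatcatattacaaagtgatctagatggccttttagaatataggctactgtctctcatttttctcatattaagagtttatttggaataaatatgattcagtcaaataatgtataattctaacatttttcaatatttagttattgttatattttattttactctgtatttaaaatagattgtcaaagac
Olfr923, chr9:38827365-38827614, plus strand: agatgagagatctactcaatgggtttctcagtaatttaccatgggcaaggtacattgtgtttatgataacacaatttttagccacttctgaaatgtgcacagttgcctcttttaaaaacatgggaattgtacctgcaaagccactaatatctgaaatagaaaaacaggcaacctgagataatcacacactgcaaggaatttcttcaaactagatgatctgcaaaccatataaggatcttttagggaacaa
Olfr26 site, chr9:38855137-38855414, plus strand: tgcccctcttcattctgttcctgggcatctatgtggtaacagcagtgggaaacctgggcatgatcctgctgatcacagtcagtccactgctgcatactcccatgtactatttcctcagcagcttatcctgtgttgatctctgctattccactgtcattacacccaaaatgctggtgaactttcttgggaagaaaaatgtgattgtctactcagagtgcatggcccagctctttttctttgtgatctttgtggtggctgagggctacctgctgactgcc
Olfr985, chr9:40128040-40128289, minus strand: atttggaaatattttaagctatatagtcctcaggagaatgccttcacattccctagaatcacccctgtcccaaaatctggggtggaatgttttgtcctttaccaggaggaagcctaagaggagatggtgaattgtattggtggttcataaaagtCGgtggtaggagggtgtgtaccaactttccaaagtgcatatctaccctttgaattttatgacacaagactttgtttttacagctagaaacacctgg
Olfr986, chr9:40180670-40180919, plus strand: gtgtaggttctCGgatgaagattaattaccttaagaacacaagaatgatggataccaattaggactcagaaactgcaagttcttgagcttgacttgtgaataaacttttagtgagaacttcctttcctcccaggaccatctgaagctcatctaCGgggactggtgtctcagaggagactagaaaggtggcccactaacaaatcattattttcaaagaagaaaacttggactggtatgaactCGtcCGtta
The stretch before the TSS used held 25.6% GC and no CpG in Olfr835, and 36.4% GC and no CpG in Olfr923. The stretches before the TSSs used of Olfr985 and Olfr986 were alike in GC content, at 41.2%, but held 1 and 4 CpGs. The site in Olfr26 had no CpG at a GC content of 48.2%.

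An H3K27me3 site lay within 1 kb of a TSS in 4 of the 132 genes, or 3.03% (95% Wilson interval 1.18 to 7.53). All 4 were in the distal cluster, where they made up 4.21% of 95 genes (1.65 to 10.3). None of the 37 genes of the proximal cluster had such a site. A count of 0 in 37 allows a share of up to 8.11% by the limit that 3 counts set, or 9.41% by the Wilson interval. The difference between the clusters was not tested. Over all protein-coding genes, the background, the share was 26.9% (5848 of 21755). Among the 1078 other protein-coding genes of chromosome 9 it was 30.1%. The intervals cover counting error only and treat genes as independent, which neighbouring genes are not. The count also depends on the annotated starts used. Olfr923 and Olfr985 counted through a TSS inside the gene body, and no site lay within 1 kb of their 5′ TSS.

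**Figure D1:**
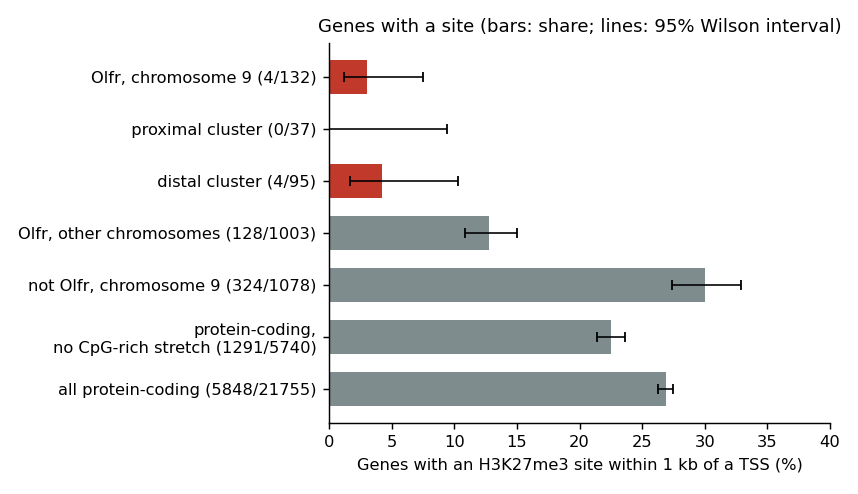
Percentage of genes with an H3K27me3 site within 1 kb of any TSS, for Olfr genes of chromosome 9 and their clusters (red) and for comparison groups (grey), with 95% Wilson intervals as lines and counts beside the names. The 4 of 132 Olfr genes of chromosome 9 (3.03%) lie below the 12.8% of Olfr genes elsewhere and the 26.9% of all protein-coding genes.

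Wider windows left the genes of chromosome 9 below the background. Within 10 kb of a TSS, 10 of them (7.58%) had a site, against 46.2% of all protein-coding genes. A site touched the gene body of 4 members, against 30.6% of all protein-coding genes. The median distance from a gene's TSS to the nearest site was 150892 bp, with a range from 0 to 540186 bp. It was 217412 bp in the proximal and 130069 bp in the distal cluster, and 13192 bp over all protein-coding genes. More than 100 kb lay between TSS and site in 88 members (66.7%), in 53.6% of the Olfr genes of other chromosomes and in 17.4% of all protein-coding genes. The median distance of the Olfr genes elsewhere was 116155 bp, nearer to that of the members than to that of all genes.

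Olfr986, the last gene of the distal cluster, was the member in which a site overlapped a TSS. The site covered 1948 bp (chr9:40179981-40181928) across the first TSS at 40180920. In all, 7 sites touched the body of Olfr986 and covered 5508 of its 9215 bp, from the promoter through parts of its introns to the coding sequence. A 1033-bp site (chr9:40187118-40188150) covered 935 of its 936 coding bases. No other member had more than 1 site in its body.

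In Olfr985, the next gene with a site, a 748-bp site (chr9:40127270-40128017) covered 690 of 933 coding bases. It ended 22 bp from the nearest TSS, which is inside the gene body. Olfr985 is 59950 bp from the end of the cluster. The remaining 2 genes lay far from the cluster's edges. A 278-bp site began 77 bp from the TSS of Olfr26, entirely within the coding sequence of 924 bases. A 528-bp site (chr9:38828072-38828599) began 457 bp from the nearest TSS of Olfr923, entirely within its coding sequence of 951 bases. Olfr923 and Olfr26 are neighbours but for Olfr924, which had no site within 1 kb.

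Only the site at the Olfr986 TSS spanned a start site. At the other 3 genes the site lay downstream of the TSS, in the coding exon. The genes Olfr923 and Olfr26 were 1117581 bp and 1146096 bp from the nearer end of the cluster. Counted over all TSSs, 6 different sites lay within 1 kb of these 4 genes, 3 of them at Olfr986.

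The 1-kb threshold fell in a wide gap. The nearest genes outside it were Olfr160 at 5070 bp, Olfr148 at 5932 bp, Olfr855 at 6949 bp, Olfr924 at 7021 bp and Olfr854 at 7929 bp. Olfr160 is the first gene of the distal cluster and encodes the receptor M72. Its nearest site was outside the cluster (chr9:37706735-37707207, 473 bp). Olfr855 and Olfr854, of the proximal cluster, lie on either side of 1 site of 358 bp (chr9:19575311-19575668). That site was also the nearest one to Olfr835, 540186 bp away, the largest distance of all members. The outermost genes of the proximal cluster, Olfr24 and Olfr18, had their nearest sites outside the cluster, at 270736 bp and 76407 bp.

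The 132 genes shared 18 nearest sites among them. A 917-bp site (chr9:38795211-38796127), which lay in no gene body, was the nearest one to 19 genes. Distances of neighbouring members are therefore not separate measurements.

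Over their whole length, the clusters held 39 sites that covered 0.695% of their bases. The rest of chromosome 9 was covered to 9.39%, which was 13.5 times as much, and chromosomes 1 to 19 and X together to 6.75%. The proximal cluster was covered to 0.141% by 5 sites and the distal cluster to 1.05% by 34 sites. Sites were also sparser, with 9.59 per Mb in the clusters and 52.9 per Mb in the rest of the chromosome. They were narrower, with a median of 570 bp against 698 bp, and 7 of 39 (17.9%) reached 1000 bp against 38.8%. The widest site of the distal cluster measured 2893 bp (chr9:40162141-40165033) and that of the proximal cluster 712 bp (chr9:19698742-19699453).

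The base composition of the clusters differed from that of the chromosome, and the contrast went with it. The clusters had a GC content of 37.8% against 42.9% in the rest of chromosome 9, and the ratio of observed to expected CpGs was 0.144 against 0.195. Of 100-kb windows, 40 lay inside the clusters, with a mean covered share of 0.726%, and 31 of them (77.5%) held no site. The 1172 windows in the rest of the chromosome had a mean of 9.39%, and 45.3% held none. In the 342 of these windows that fell in the clusters' range of GC content, the mean was 0.611% and 81.3% held none. The direction of this last comparison rested on 1 cluster window, the one at the end of the distal cluster. Without it, the mean of the other 39 windows was 0.297%, and that of 226 windows of their GC range elsewhere 0.362%. The share without a site went the other way, at 79.5% of the 39 and 87.2% of the 226. At like GC content, the covered share of the clusters was thus of the same order as that of other parts of chromosome 9, with or without this window.

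In narrower steps of GC content, the mean of the clusters was below that of the rest of the chromosome in the lower steps, while their windows held a site more often. Below 38% GC, 24 windows of the clusters averaged 0.238% and 102 windows elsewhere 0.310%, with no site in 20 of 24 and in 88.2%. Between 38 and 40% GC, 15 windows of the clusters averaged 0.393% and 167 windows elsewhere 0.587%, with no site in 11 of 15 and in 83.8%. These 15 include the window at the start of the distal cluster, whose sites lay outside the cluster. The 1 cluster window between 40 and 42% GC, at the end of the distal cluster, was covered to 17.4%, and 237 windows elsewhere averaged 2.55%. From 46% GC up, where the clusters had no window, the mean was 22.3%. Whether base composition sets the number of sites was not tested.

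**Figure D2:**
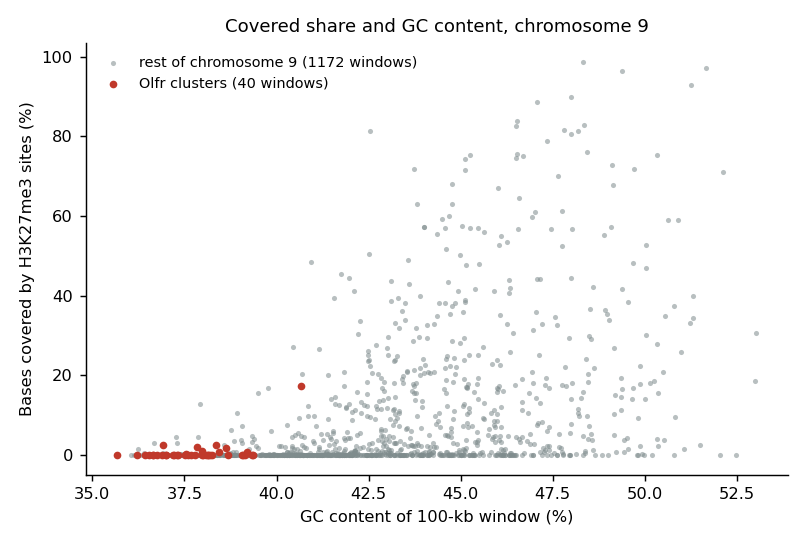
GC content (x axis, %) and percentage of bases covered by H3K27me3 sites (y axis) of 100-kb windows of chromosome 9. The 40 windows wholly or mostly inside the Olfr clusters are in red and 1172 other windows in grey. The cluster windows lie at the low end of GC content, where other windows were also mostly at 0, and 1 cluster window stands out at 17.4%.

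In the window of 500 bases on each side of the 5′ TSS, the members had a median GC content of 35.02% and a CpG ratio of 0.101, against 54.8% and 0.558 over all protein-coding genes. Below 35% GC, 1 of 66 members (1.52%) had a site within 1 kb, against 3 of 217 protein-coding genes of all chromosomes that are not Olfr genes (1.38%) and 0 of 7 such genes of chromosome 9, which allows a share of up to 42.9%. Between 35 and 40% GC, the counts were 2 of 54 members (3.70%) and 45 of 896 other genes (5.02%), while the other genes of chromosome 9 were higher, with 5 of 28 (17.9%). Between 40 and 45% GC, they were 1 of 11 members (9.09%) and 387 of 1857 other genes (20.8%), with 21 of 75 (28.0%) on chromosome 9. At like GC content around the 5′ TSS, the members were thus close to other genes of the genome below 40% GC. From 35% GC up they were below the other genes of chromosome 9, in small numbers of genes and with no test. A site near any TSS counted, and in Olfr923 and Olfr985 it lay near a different TSS from the one used for GC content.

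A CpG-rich stretch, meaning 200 bp with at least 50% GC and a CpG ratio of at least 0.6, lay within 1 kb of a TSS in 6 members (4.55%) and in 73.6% of all protein-coding genes. Of these 6, only Olfr986 had a site. Protein-coding genes without such a stretch had a site in 22.5% of cases (1291 of 5740), and the 197 other such genes of chromosome 9 in 38.1%. Those 5740 genes, with a median GC content of 43.8%, were less AT-rich than the members.

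Much of the covered sequence lay at 1 end of 1 cluster. The last 100 kb of the distal cluster made up 2.46% of the bases of the clusters but held 21 of the 39 sites and 61.7% of the covered bases. Its covered share was 17.4%. Without it, the clusters were covered to 0.273%, and 2 of 128 genes (1.56%) had a site within 1 kb. Most of its sites formed a run with gaps of less than 10 kb that reached into Olfr986 and ended 1.22 kb short of the cluster's end.

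**Figure D3:**
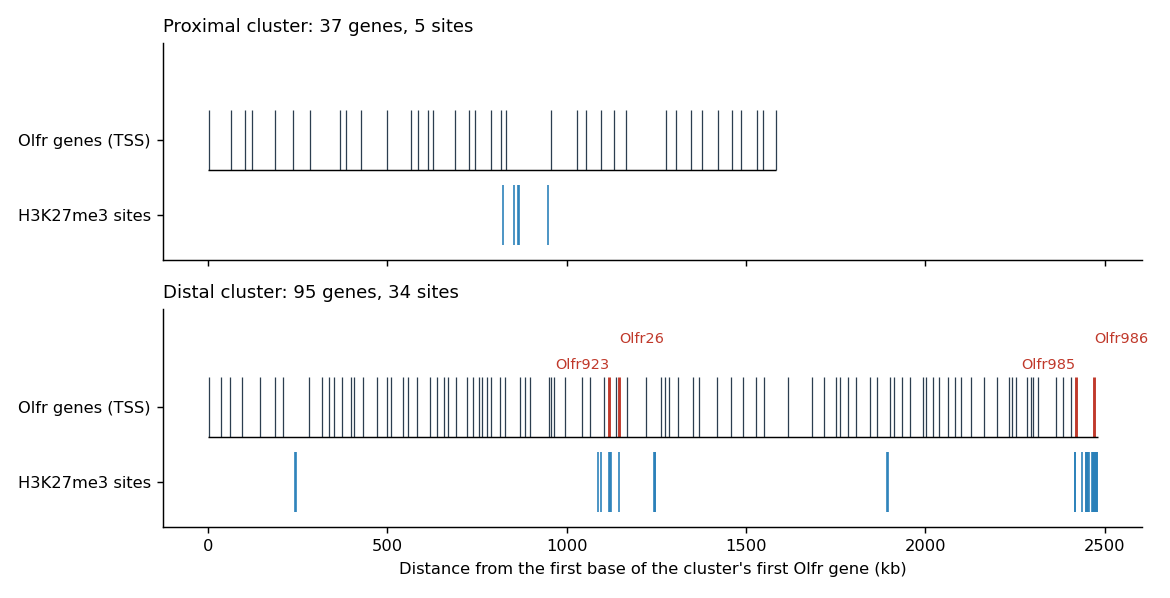
TSSs of the Olfr genes (upper ticks) and H3K27me3 sites (lower ticks, blue) along the proximal and distal clusters, in kb from the first base of the first gene. The 4 genes with a site within 1 kb are named in red, and 21 of the 34 sites of the distal cluster crowd its last 100 kb.

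In steps of 50 kb inward from the last gene, the covered share of the distal cluster was 32.6%, then 2.33%, then 0%. The 50 kb outside that edge were covered to 36.1% and the next 50 kb to 57.6%. The 250 kb past the last gene were covered to 44.5%. They hold Scn3b, a sodium channel subunit gene whose TSS was in a 6646-bp site and which was chosen after its value was seen. Of its neighbours, Zfp202, between it and the cluster, was 3404 bp from the nearest site, and Gramd1b had a TSS in a 4710-bp site. At the other 3 edges, the first 50 kb inside held no site. The 250 kb before the first gene of the distal cluster were covered to 18.5%, those after the proximal cluster to 12.2%, and those before the proximal cluster had no site. In all, 14 genes lay within 100 kb of a cluster edge, of which 2 had a site, and 118 lay deeper, of which 2 had a site.

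**Figure D4:**
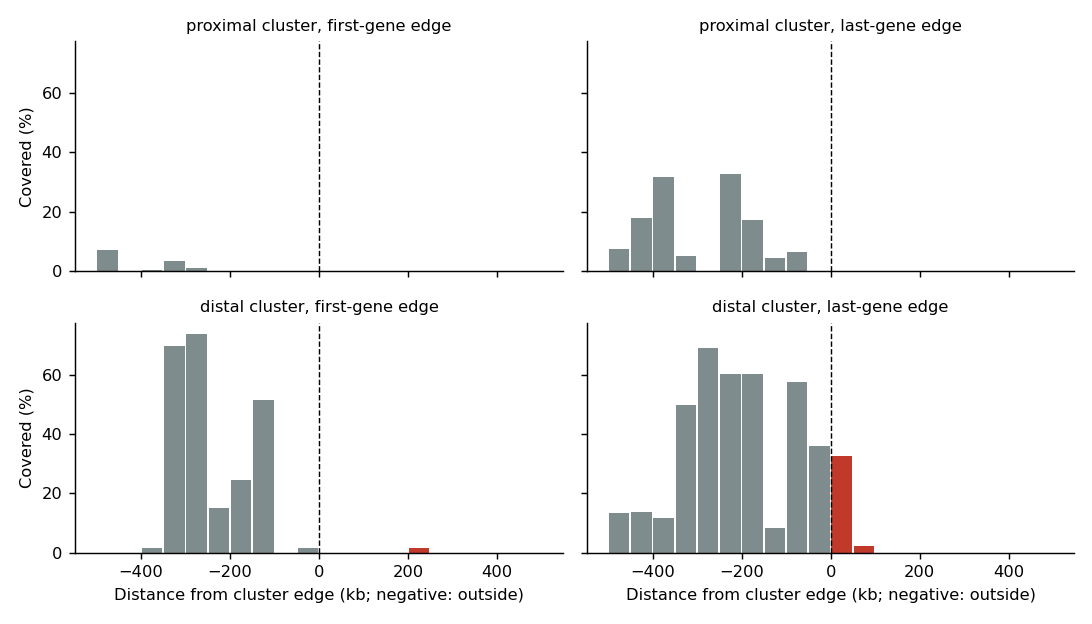
Percentage of bases covered by H3K27me3 sites in 50-kb steps across the 4 edges of the clusters, with distances in kb, inside in red and outside in grey. At 3 edges the first 50 kb inside held no site, while at the last-gene edge of the distal cluster the covered share was 36.1% outside and 32.6% inside.

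Outside the last 100 kb of the distal cluster, sites came as small groups. The longest stretch of the proximal cluster without a site was 823804 bp (chr9:18751507-19575310), from the cluster's first base in Olfr24 to past Olfr854. It held 20 genes and took up 52.0% of the cluster. In the distal cluster, 841667 bp without a site (chr9:37953544-38795210) held 36 genes, from Olfr881 to Olfr921, and took up 33.9%. The largest inner group had 6 sites in 60.2 kb, around Olfr922, Olfr923, Olfr924 and Olfr26.

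Receptor coding sequence made up 3.05% of the clusters and was covered to 1.96%, while all other bases of the clusters, introns, untranslated exons and other genes included, were covered to 0.656%. The coding bases that were covered belonged to the same 4 genes, so this difference rests on few sites. The coding sequence of the other genes of chromosome 9 was covered to 11.6%. Of the 39 sites, 27 lay in no gene body. The bases inside the 39 sites had a GC content of 44.5%, above the 37.8% of the clusters as a whole.

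Of the 4 other protein-coding genes inside the clusters, 2 had a site at most 1 kb from a TSS. AW551984 had a TSS in a 1727-bp site (chr9:39602013-39603739), and a TSS of Tmem225 was 944 bp from a site (chr9:40146974-40147178). Zfp317, which encodes a zinc finger protein, was 4149 bp from the nearest site and Vwa5a 59026 bp. Of 41 Olfr pseudogenes of chromosome 9, 30 of them unprocessed and 11 polymorphic, none had a site within 1 kb, which allows a share of up to 7.32%.

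Most of the sequence around the starts of the members was unique in the genome. Words of 75 bases that occur once in the genome made up a median of 99.2% of the TSS windows of the members, and at least 81.8% in each. In 123 of the 132 genes the share was 90% or more. Over the whole clusters it was 90.05%, against 94.5% in the rest of chromosome 9. Counting only such positions, the covered shares were 0.764% in the clusters and 9.89% in the rest of the chromosome.

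Olfr genes of other chromosomes had a site in 128 of 1003 cases, or 12.8% (10.8 to 15.0), more often than the 3.03% on chromosome 9. No test was made of this difference, since genes of a cluster are not independent. Chromosomes ranged widely. Only 2 of 294 genes had a site on chromosome 2 (0.680%), 2 of 70 on chromosome 10, 2 of 66 on chromosome 19 and 29 of 244 on chromosome 7. On chromosome 11 they were 27 of 82 and on chromosome 15 all 9. Below 35% GC around the TSS, 2 of 383 Olfr genes elsewhere (0.522%) had a site, between 35 and 40% GC 22 of 344 (6.40%), and between 40 and 45% GC 45 of 185 (24.3%).

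Across the 23 Olfr clusters of at least 10 genes, the covered share had a median of 0.785% and ranged from 0 to 18.6%. It was below 1% in 13 of them. The distal cluster, at 37.7% GC, was more covered than the other clusters of up to 38.7% GC, of which the highest had 0.785%. This order rested on its last 100 kb, without which, in a setting chosen after seeing the data, it was covered to 0.361%. The proximal cluster of chromosome 9 had rank 9 from the least covered and the distal cluster rank 14. GC content and covered share rose together over these 23 clusters, with a Spearman's rho of 0.83, given as a description of clusters that share all their libraries.

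**Figure D5:**
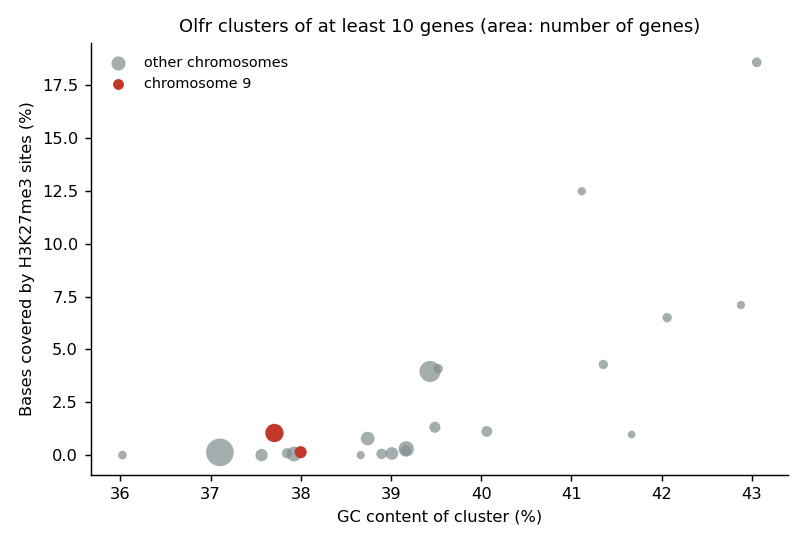
GC content (x axis, %) and percentage of bases covered by H3K27me3 sites (y axis) of the 23 Olfr clusters of at least 10 genes, with areas in proportion to the number of genes plus a constant. The clusters of chromosome 9 (red) lie at 0.141% and 1.05%, and the value of the distal one is 0.361% without its last 100 kb.

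The other genes of the pathway and of related receptor families differed among themselves. Of 15 genes listed for signalling in olfactory sensory neurons, 9 had a site within 1 kb (60%, 95% Wilson interval 35.7 to 80.2), against 26.9% of all protein-coding genes. They were Gnal (the G protein of the receptors), Gng13, Ano2 (a chloride channel), Slc24a4 (an ion exchanger), Reep1, Gfy and 3 genes of cyclic nucleotide-gated channels. These 3 were Cnga2, Cngb1 and Cnga3. Cnga3 is best known from cone photoreceptors and is not part of the channel of neurons that use Olfr receptors. The site at Slc24a4 was 23576 bp wide and that at Gfy 18082 bp. The 6 markers of olfactory sensory neurons that were looked at are all part of this list, and 3 of them had a site (interval 18.8 to 81.2). Of 9 genes that take part in receptor choice, Lhx2, which encodes a LIM homeodomain factor, had a site, of 41304 bp (1 of 9, interval 1.99 to 43.5). The intervals of the last 2 lists include the 26.9% of all genes. In other chemoreceptor families, sites were found at 4 of 209 Vmn1r genes (Vmn1r1, Vmn1r25, Vmn1r87 and Vmn1r88), 1 of 122 Vmn2r genes (Vmn2r90), 2 of 35 Tas2r genes (Tas2r119 and Tas2r144), 0 of 15 Taar genes and 0 of 7 Fpr genes. These counts of 0 allow shares of up to 20% and 42.9%. None of 12 fibroblast markers had a site within 1 kb, which allows a share of up to 25%.

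Promoter sequence of RefSeq, from 250 bases before to 50 after the TSS, was matched for 109 of the 132 genes, with 110 promoters. Read on both strands, the homeodomain core TAATTA was in 28 of them (25.5%), in 17.7% of the promoters of other Olfr genes and in 5.29% of all 32851 promoters. The TATAAA box was in 49 (44.5%), in 40.6% of the promoters of other Olfr genes and in 13.6% of all promoters. The palindromic core of the Ebf motif was in none of the 110, which allows a share of up to 2.73% and so does not differ detectably from the 0.904% of all. No CpG was present in 35.5% of the promoters of the members, in 33.3% of those of other Olfr genes and in 5.43% of all promoters. These motifs are AT-rich or GC-rich themselves, and a match describes letters and not binding.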

How the data were processed

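H3K27me3 ChIP-seq libraries (8) and inputs (4) of iMEF cells were grouped by their titles. Per the methods, BWA alignments of trimmed reads to mm10 were filtered with samtools, replicates were merged with Picard, and the authors used MACS for broad peaks. Versions, cutoffs and the rule for joining peaks were not given in the sources used here. The deposited values are positions (chromosome, start and end in bp, unit other) of sites pooled over all samples, with no count or score. Tests between dTAG and untreated cells fixed in the design need values per library and were therefore not run. The methods name a minimum number of raw reads planned per ChIP sample, but the depth reached by each library was not in the sources used here. In the list, 0 columns of per-sample values were left unused. Biological replicates were in the pooled list only.

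Starts were read as counted from 0, since the smallest end minus start was then 200, and are printed from 1. Genes and TSSs were from GENCODE M21. A gene had a site if at least 1 base of it lay within 1 kb of any TSS. Clusters joined genes over at most 500 kb and had at least 2 genes. Covered shares leave out assembly gaps. Words of 75 bases were counted in GRCm38.p6, patches and strain sequences included. GC content was computed in 100-kb windows and 500 bases around the 5′ TSS. Intervals are 95% Wilson intervals, and a count of 0 genes is given with the limit that 3 counts set. No test was made. The steps were tested on simulated data. Python 3.11.15, numpy 2.4.6, pandas 2.3.3, scipy 1.17.1 and numba 0.67.0 were used.

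The family, its chromosome and the gene lists were chosen as a subject with earlier results of these data known, although the rule for members uses only symbol and position. By rule, genes were named if they had a site within 1 kb, if they were the next 5 by distance or the farthest one, if they were first or last in a cluster, or if they were other protein-coding genes inside a cluster or list members with a site. Genes at the ends of stretches and beside groups of sites were named for their position, and Scn3b was chosen after its value was seen. Zfp202 and Gramd1b were named as neighbours of Scn3b.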

Additional observations from a re-analysis of the deposited data

How the results depend on the processing

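With the threshold at the TSS base itself, 1 gene of chromosome 9 had a site, at 10 kb 10, with sites of at least 1000 bp 1 and without genes in the last 100 kb of the distal cluster 2 (chosen after seeing the data), against 4 in the main setting. For Olfr genes elsewhere, 194 had a site at 10 kb and 82 with sites of at least 1000 bp, against 128. The covered share of the clusters (main 0.695%) was 0.670% with genes joined over 100 kb, 1.10% with 50 kb added on each side, 0.844% in gene bodies, 0.585% and 0.300% with sites of at least 500 and 1000 bp, 1.12% with sites under 3000 bp apart merged, 1.06% in unmasked bases, 0.764% at unique words and 0.273% without the last 100 kb. The rest of chromosome 9 was covered 8.51 to 34.4 times as much in these settings. This reversed in 1 setting, windows in the GC range of the clusters, where the clusters had 0.726% and the rest 0.611%. That rested on 1 window at the end of the distal cluster, without which the clusters had 0.297% and windows of their GC range 0.362% (chosen after seeing the data), and the cause was not tested. Other settings tried (windows of 3 kb, centres of sites, gene bodies, merged sites, patch-repeated regions) left the counts of genes within 1.5 times of the main ones. No paired analysis was possible because the list holds no value for a replicate, and for the same reason no replicate could be left out. The number of libraries and the depth behind a site are unknown, and a gene without a site may carry signal below the authors' cutoff.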
